A study of Mus musculus with 15 samples.

Results

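Pttg1 (ENSMUSG00000020415) encodes securin, and it is 1 of the 57180 genes listed in the deposited brainstem RNA-seq tables. It was chosen because its counts differed widely between the genotypes of the AMPK experiment, so its values there are given as a description with no test. The study sequenced polyA RNA from the brainstem of C57BL/6 mice in 15 libraries, 3 for each genotype, to ask how the kinase AMPK and the transcription factor Lmx1b shape the centres that control breathing. The AMPK libraries came from AMPKα2-/- mice, which lack the catalytic α2 subunit of AMPK, and from their WT littermates, and the mice of the study were newborn. The Lmx1b libraries came from prenatal WT, Lmx1b+/- and Lmx1b-/- mice, and mice without Lmx1b die before birth. Age, experiment and sequencing differ together between the AMPK and the Lmx1b libraries and cannot be told apart. Each library of a genotype was taken as a separate sample, and p-values measure the spread between these samples.

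Securin binds separase, the protease that cuts the cohesin ring holding sister chromatids together, and keeps it inactive until every chromosome is attached to the spindle. The anaphase-promoting complex (APC/C) with its activator Cdc20 then marks securin for destruction, and separase is released. In dividing cells securin is made mainly in G2 and mitosis together with cyclin B1 and Cdk1, so in brain tissue it is usually read as a sign of proliferating progenitors. It was first described in pituitary tumour cells, where it is abundant.

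The stretch of DNA below is given because promoters of genes made in G2 and mitosis often hold the sequences CCAAT and TTTGAA, and the promoter of Cdk1, the mitotic kinase, shows both. Both stretches are from the RefSeq promoter table of build GRCm38.p6, written 5′ to 3′ on the gene's own strand. Bases annotated as untranslated or coding parts of exons are left out, while bases of introns are not. Pttg1 is shown at chr11:43425982-43426173 and Cdk1 at chr10:69352939-69353162, both on the minus strand. Capitals mark the motif CCAAT on either strand. They likewise mark the motif TTTGAA. The last motif marked is the GC box, which reads GGGCGG. Cdk1 was chosen for display after its letters were seen.
Pttg1: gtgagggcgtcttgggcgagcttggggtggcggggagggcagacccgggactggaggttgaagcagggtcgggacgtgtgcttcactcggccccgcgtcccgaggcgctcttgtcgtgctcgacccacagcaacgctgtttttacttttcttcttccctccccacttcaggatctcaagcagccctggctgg
Cdk1: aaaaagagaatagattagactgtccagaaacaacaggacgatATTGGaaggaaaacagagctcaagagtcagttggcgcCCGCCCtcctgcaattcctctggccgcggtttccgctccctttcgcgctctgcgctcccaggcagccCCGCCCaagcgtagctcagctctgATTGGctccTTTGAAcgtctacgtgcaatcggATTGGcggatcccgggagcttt
The 300-base window of Pttg1, from which its stretch was taken, held none of these motifs on either strand. Of all 32851 windows in the table, 37.4% held CCAAT, 17.9% held TTTGAA and 35.7% held GGGCGG. Among the 31 windows of 29 genes on a list of G2/M genes, 23 held CCAAT, 26 held TTTGAA and 26 held GGGCGG. By the GENCODE annotation of that build, other Pttg1 transcripts start upstream of the start this window was built on. The Pttg1 stretch shown may thus be intron of those transcripts and not their promoter. The absence of these letters says only that they are not in this window. The window held 20 CG dinucleotides, against a median of 7 over all windows.

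Pttg1 was almost without reads in the WT libraries of the AMPK experiment and was well represented in the libraries labelled AMPKα2-/-. In WT 1, 2 and 3 it was at 0.527, 0 and 0.700 CPM (counts relative to the TMM-scaled total of each library, in the usual unit of edgeR), from 8, 0 and 12 counts. In AMPKα2-/- 1, 2 and 3 it was at 12.5, 24.0 and 36.3 CPM, from 189, 370 and 12 counts. All AMPKα2-/- libraries lay above all WT libraries. The means were 0.409 ± 0.365 CPM (SD, n = 3) in WT and 24.2 ± 11.9 CPM (SD, n = 3) in AMPKα2-/-. The fitted log2 fold change was 5.03 (SE 0.44), or 32.7-fold.

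WT 2 and AMPKα2-/- 3 were sequenced far less deeply than the others. They held 291212 and 335986 counts, against 14975095 to 17384171 in the other 4 AMPK libraries and 28833130 to 37441679 in the Lmx1b libraries. Taking 3 counts as the upper limit of a count of 0, the limit in WT 2 was 9.98 CPM, so Pttg1 at 5.30 to 7.74 CPM, the range of the Lmx1b libraries other than Lmx1b+/- 3, would not have been detectable there. The exact 95% binomial interval of AMPKα2-/- 3, which covers counting error only, ran from 18.7 to 63.3 CPM. Without these libraries, the log2 fold change of Pttg1 was 4.87. Over all 17397 genes tested in the AMPK libraries, 13.9% were higher in AMPKα2-/- with no overlap between the genotypes, and nothing is read from this for Pttg1, which was chosen for its difference.

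In the Lmx1b experiment the values of Pttg1 lay between those of the AMPK genotypes, apart from the limit of the shallow AMPK WT 2. It was at 5.35, 5.30 and 6.24 CPM in WT 1 to 3, at 6.80, 7.74 and 10.5 CPM in Lmx1b+/- 1 to 3, and at 6.46, 7.63 and 6.57 CPM in Lmx1b-/- 1 to 3. WT was the lowest genotype, with no overlap with either of the others, and Lmx1b+/- and Lmx1b-/- overlapped. Of all tested genes, 23.4% lay above WT without overlap in Lmx1b+/- and 11.9% in Lmx1b-/-. The means were 5.63 ± 0.531, 8.35 ± 1.92 and 6.89 ± 0.648 CPM (SD, n = 3 each). Ordered by mean, the genotypes of both experiments ran from AMPK WT through Lmx1b WT, Lmx1b-/- and Lmx1b+/- to AMPKα2-/-. Between the experiments these levels are set side by side only, since the tables were normalised separately.

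**Figure D1:**
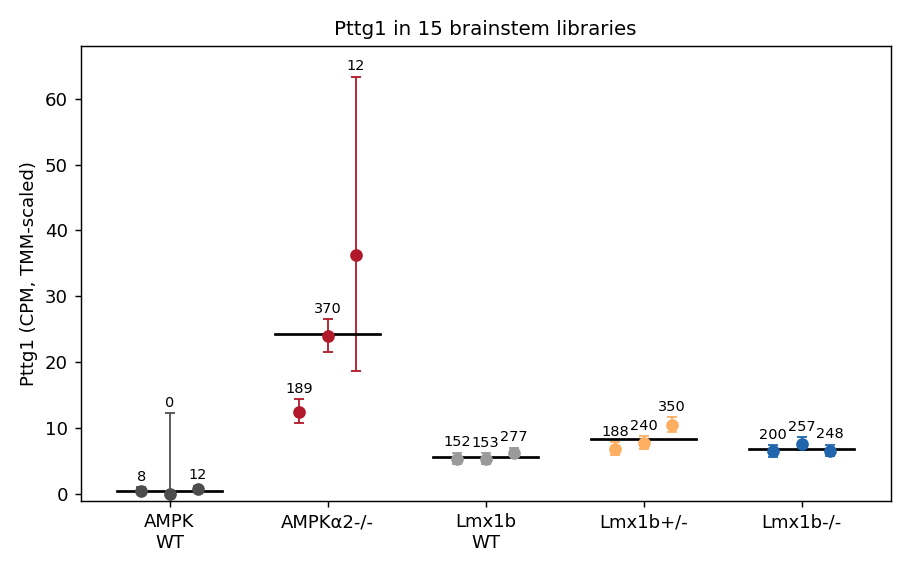
Pttg1 in CPM on the vertical axis for the 15 libraries, grouped by genotype, with exact 95% binomial intervals (counting error only). The number of counts stands above each point, and the group mean is a line. The AMPKα2-/- libraries, at 12.5 to 36.3 CPM, lie above every other library. AMPK WT 1 and 3, at 0.527 and 0.700 CPM, lie below every Lmx1b library, while the interval of WT 2, with 0 counts, reaches 12.3 CPM.

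Pttg1 rose in Lmx1b+/- against WT, by 0.57 on the log2 scale (SE 0.17, edgeR quasi-likelihood adjusted p = 0.0211). This comparison called 36.7% of the 21729 tested genes (19.4% of the tested genes as higher and 17.3% as lower), so a call of this kind was common. With 3 libraries against 3, the smallest p of an exact permutation test is 0.1, and this was the value reached for Pttg1 (two-sided). The call was lost without Lmx1b+/- 3 (0.37, adjusted p = 0.110), without WT 1 (0.53, adjusted p = 0.0638) and without WT 2 (0.53, adjusted p = 0.0598). With libraries scaled by their total only, which lowers the median of all genes from −0.03 to −0.27, the log2 fold change was 0.32 (adjusted p = 0.272).

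In Lmx1b-/- against WT the log2 fold change of Pttg1 was 0.29 (SE 0.17, adjusted p = 0.674), in a comparison that called 0.0184% of genes and in which 8.09% had an unadjusted p under 0.05. In Lmx1b-/- against Lmx1b+/- it was −0.28 (SE 0.17, adjusted p = 0.265), and 25.5% of genes were called there. Neither passed the test. The 3 contrasts share libraries and are not independent of each other. Lmx1b itself was at 9.73 to 22.5 CPM in WT and 0.848 to 1.45 CPM in Lmx1b-/- (−3.82, adjusted p = 0.00287), as the labels give it. In Lmx1b+/- it was at 30.5, 11.9 and 14.3 CPM (0.23, adjusted p = 0.618) and overlapped WT, so its level does not check the label of the genotype in which Pttg1 was called. Prkaa2, which encodes AMPKα2, was at 21.9, 26.6 and 29.7 CPM in WT and 25.4, 22.3 and 12.1 CPM in the libraries labelled AMPKα2-/- (−0.20, adjusted p = 0.659). Its counts overlapped between the genotypes, so each direction given for the AMPK experiment is one between labels.

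The first question was whether cell cycle genes moved with Pttg1. In the AMPK libraries they did so in 1 case of 76 tested. The genes were 101 members of 4 lists, covering cohesin and separase, the APC/C and spindle checkpoint, G2/M genes and G1/S genes. Of the 76 that passed the filter on low counts, 1 was called and 8 had an unadjusted p under 0.05, where the whole comparison called 8.94% of 17397 genes, 3.77% as higher and 5.17% as lower, and 24.6% had an unadjusted p under 0.05. Their log2 fold changes were positive for 38 and negative for 38, with a median of −0.00, against −0.01 over all tested genes. With DESeq2, which called 644 genes in all, 1 was called as well. With limma on RPKM 0 of all 17397 genes were called, so its 0 here says nothing about the cell cycle genes.

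Securin's own partners were near level between the AMPK genotypes or too low to test. Espl1, which encodes separase, was at 0.724, 0 and 0.992 CPM in WT and 0.595, 0.194 and 0 CPM in AMPKα2-/-. It lay under 1 CPM in every AMPK library and did not pass the filter. Rad21, the cohesin subunit that separase cuts, was at 115 to 125 CPM in WT and 112 to 145 CPM in AMPKα2-/- (0.10, adjusted p = 0.768). Smc1a and Smc3, the arms of the cohesin ring, had log2 fold changes of −0.04 and 0.34 (adjusted p = 0.924 and 0.244). The lowest p of this list belonged to Mau2 and Nipbl, which load cohesin onto DNA, with log2 fold changes of −0.51 and −0.36 (adjusted p = 0.121 and 0.229). Of 12 tested members 0 were called by edgeR, and 1 had an unadjusted p under 0.05. The shares over all genes were 8.94% and 24.6%, so a count of 0 among 12 says little about them.

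The APC/C and spindle checkpoint list held the single call. Anapc13, a small structural subunit of the APC/C, was at 16.7, 9.98 and 11.4 CPM in WT and 25.2, 25.9 and 51.4 CPM in AMPKα2-/-. It rose by 1.06 (SE 0.27, adjusted p = 0.0164), with no overlap between the genotypes, but not without WT 3 (0.85, adjusted p = 0.0955) or without AMPKα2-/- 3 (0.93, adjusted p = 0.0518). Anapc10 and Anapc4, other subunits of the complex, had log2 fold changes of 0.76 and 0.43 (adjusted p = 0.127 and 0.156). Fzr1, the activator that keeps the APC/C on in G1, was at −0.44 (adjusted p = 0.192), and Mad2l1, which holds the checkpoint, at 0.29 (adjusted p = 0.707). Cdc20 was under 1 CPM in every AMPK library, at 0 to 0.992 CPM in WT and 0 to 0.793 CPM in AMPKα2-/-. Bub1b, the checkpoint protein BubR1, had a log2 fold change of 0.37 (adjusted p = 0.706).

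The genes normally made in the same hours of the cell cycle as securin were scarce in both AMPK genotypes. Ccnb1 (cyclin B1) was at 0.132, 0 and 0.0584 CPM in WT and 0, 0.0648 and 0 CPM in AMPKα2-/-. Aurkb (Aurora B kinase) reached 0.35 CPM at most. Top2a (topoisomerase IIα) was at 0 to 1.81 CPM in WT and 0.259 to 3.02 CPM in AMPKα2-/-. These 3 genes did not pass the filter. Mki67, the gene of the proliferation marker Ki-67, was at 0.395, 0 and 3.33 CPM in WT and 2.97, 1.04 and 0 CPM in AMPKα2-/- (0.08, adjusted p = 0.964), and the genotypes overlapped. Cdk1 and Plk1, kinases of mitosis, had log2 fold changes of 0.18 and −0.69 (adjusted p = 0.919 and 0.554). The smallest p of the 21 tested G2/M genes belonged to Nusap1 (−1.13, adjusted p = 0.172) and Cenpf (1.56, adjusted p = 0.195), a spindle protein and a kinetochore protein. Of these 21 genes 0 were called by edgeR, 2 had an unadjusted p under 0.05, and the median log2 fold change was −0.10. Over all genes 8.94% were called, and 24.6% had an unadjusted p under 0.05.

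G1/S genes gave the same counts of calls. Of 21 tested, 0 were called by edgeR, 0 had an unadjusted p under 0.05, and the median log2 fold change was −0.04. The shares over all genes were again 8.94% and 24.6%. Pcna, the sliding clamp of DNA replication, was at 28.4, 6.66 and 18.6 CPM in WT and 31.7, 28.8 and 27.2 CPM in AMPKα2-/- (0.44, adjusted p = 0.284). Gins2, Slbp and Mcm2, which serve replication and histone supply, had log2 fold changes of 1.23, 0.42 and −0.49 (adjusted p = 0.249, 0.258 and 0.518). Cdk1, Cdc20, Bub1b, Mki67, Plk1, Mcm2, Rad21 and Smc1a, none of them called, changed sign in this comparison under another processing choice or without 1 library.

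**Figure D2:**
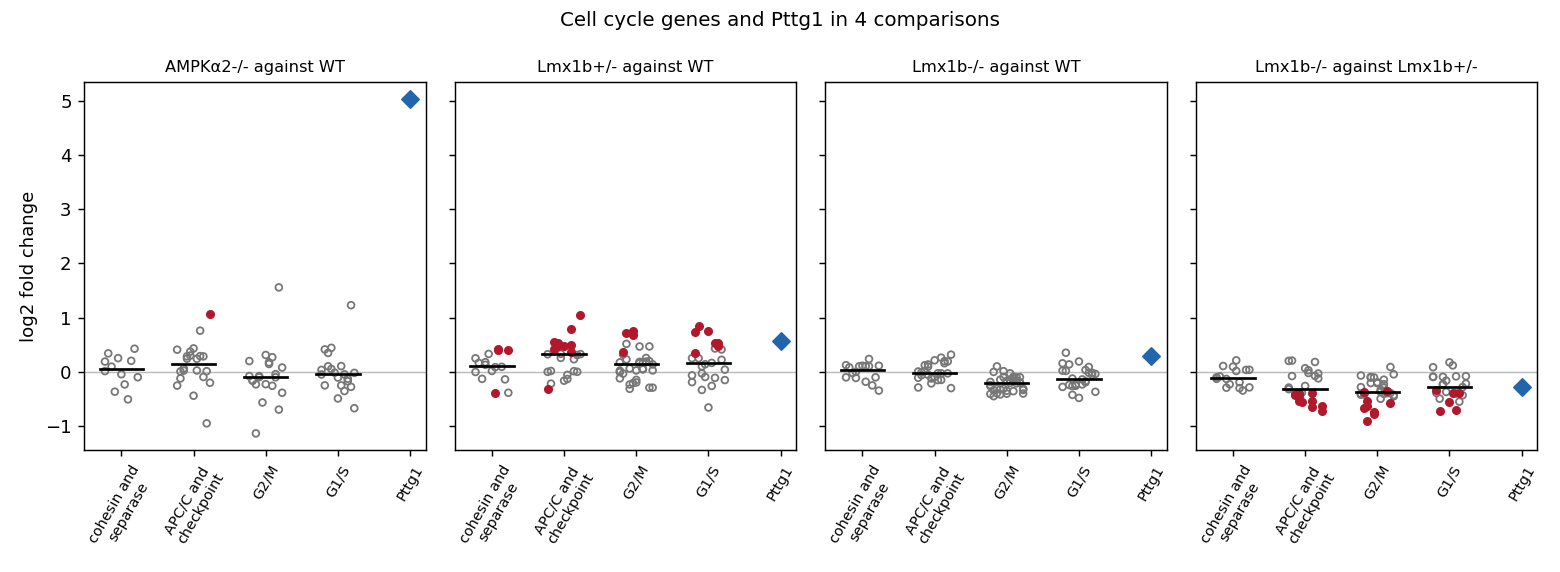
Log2 fold change on the vertical axis of the tested members of 4 cell cycle lists (circles, filled red at an adjusted p under 0.05, line at the list median) and of Pttg1 (blue diamond) in 4 comparisons. In AMPKα2-/- against WT, Pttg1 stands at 5.03 and the cell cycle genes lie from −1.13 to 1.56.

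Set against the same G2/M genes within each library, Pttg1 stood higher in AMPKα2-/- than in the other genotypes. It was chosen for its difference there. In RPKM, which divide by gene length and so allow genes to be compared, Pttg1 was at 6.07, 10.6 and 17.9 in AMPKα2-/- 1 to 3, above 34, 34 and 35 of the 35 G2/M genes. The gene above it in the first 2 of these libraries was Anln, which encodes anillin of the contractile ring and is also made by myelinating cells. In AMPK WT 1, 2 and 3 Pttg1 was at 0.267, 0 and 0.387 RPKM and stood above 24, 0 and 27 of them. In the shallow WT 2 and AMPKα2-/- 3, 24 and 21 of the 35 had 0 counts, so the ranks there rest on few genes with counts. In the Lmx1b libraries it was at 2.58 to 4.67 RPKM and stood above 21 to 29, a range that also holds the ranks in AMPK WT 1 and 3.

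The share of the summed RPKM of the G2/M genes that Pttg1 amounted to was 19.8% to 62.8% in AMPKα2-/-, 0% to 1.22% in AMPK WT, 2.32% to 3.39% in Lmx1b WT, 3.22% to 4.45% in Lmx1b+/- and 3.81% to 4.37% in Lmx1b-/-. In the AMPK libraries the highest G2/M gene was at 14.5 to 23.0 RPKM, so the shares there rest largely on a single gene. This gene was Anln in AMPKα2-/- 1 and 2. The median G2/M gene was at 0 to 0.235 RPKM in the AMPK libraries and at 1.61 to 2.53 RPKM in the Lmx1b libraries. AMPKα2-/- libraries thus combined the highest Pttg1 level of the series with a low G2/M level, while the embryonic libraries had a higher G2/M level and less Pttg1.

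**Figure D3:**
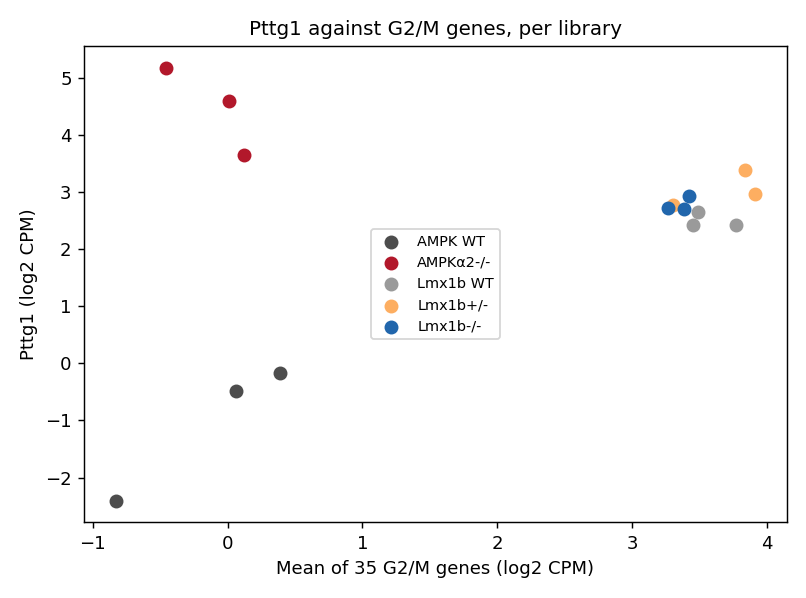
Pttg1 in log2 CPM (vertical) against the mean log2 CPM of 35 G2/M genes (horizontal), with 1 point for each of the 15 libraries, coloured by genotype. The AMPK libraries share a low G2/M level and split on Pttg1, and the Lmx1b libraries lie together at 3.26 to 3.91 on the horizontal axis.

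Across the 9 Lmx1b libraries, the log2 CPM of Pttg1 had a Pearson's r of 0.37 with the mean of the G2/M genes (exact permutation p = 0.326) and a Spearman's rho of 0.18 (exact permutation p = 0.644). With the G1/S genes, r was 0.51 (exact permutation p = 0.170) and rho 0.20 (exact permutation p = 0.613). Adjusted over the 2 lists, the p-values were 0.326 for both r and 0.644 for both rho (exact permutation, two-sided). Lmx1b+/- 2 and 3 lay farthest from the median level of the G2/M genes and of the G1/S genes, and without them r turned to −0.63 and −0.45, so its sign rests on these libraries. Within genotypes, r was 0.46 and 0.38. The AMPK libraries fall into separate clusters on Pttg1 and are too few within a cluster, so no r is given for them.

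In Lmx1b+/- against WT, 26 of the 101 cell cycle genes were called, 24 of them higher, with a median log2 fold change of 0.17 against −0.03 over all genes. As a share this is 25.7%, below the 36.7% of all genes. Pcna was at 25.8, 30.9 and 29.6 CPM in WT and 43.8, 54.1 and 57.8 CPM in Lmx1b+/-, and it rose by 0.85 (adjusted p = 0.000115). Anapc13 rose by 1.05 (adjusted p = 6.8e-05), Cdk1 by 0.75 (adjusted p = 0.0106), Anapc4 by 0.47 (adjusted p = 0.00497) and Smc3 by 0.40 (adjusted p = 0.0095). Mau2 fell by 0.40 (adjusted p = 0.00425). The calls of Cdk1, Anapc4 and Smc3 were lost in limma and with library totals only, with adjusted p up to 0.163, 0.285 and 0.484, and that of Cdk1 also without Lmx1b+/- 3 (0.64, adjusted p = 0.0527). Scaled by library total only, which lowers the median of all genes to −0.27, 10 of the 101 were called and 4 of them were higher. Lmx1b+/- libraries also held 9.58% to 14.7% of counts on mitochondrially encoded genes, against 5.57% to 6.74% in WT, and summed erythroid marker levels of 3552 to 7519 CPM against 510 to 1252 CPM, with 8 of 8 tested erythroid markers higher. Summed neural progenitor markers were at 1542 to 2346 CPM in Lmx1b+/- and 1222 to 1367 CPM in WT, without overlap. Of these 12 markers 2 were called higher and 1 lower. The log2 fold change was positive for 5 of them and negative for 7, with a median of −0.08, so the sum does not stand for most of them. Summed oligodendrocyte progenitor markers were at 235 to 299 CPM against 349 to 409 CPM, and 6 of 7 were called lower. The part of these in the Pttg1 difference was not tested.

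In Lmx1b-/- against WT, 0 of the 101 cell cycle genes were called by edgeR, DESeq2 or limma, and 5 had an unadjusted p under 0.05. Over all genes the shares were 0.0184% and 8.09%, so a count of 0 among 101 is no result about them. The median was −0.11, and 33 of the 35 G2/M genes had a negative log2 fold change where Pttg1 had a positive one. Espl1, at 6.67 to 8.09 CPM in WT and 5.39 to 6.12 CPM in Lmx1b-/-, had a log2 fold change of −0.34 (adjusted p = 0.671). Plk1 was at −0.40, Cenpa, the histone of centromeres, at −0.41, and Uhrf1, which carries DNA methylation through replication, at −0.42 (adjusted p = 0.604 each). In Lmx1b-/- against Lmx1b+/-, 26 of the 101 fell, where 14% of all genes did, among them Anapc13 (−0.73), Pcna (−0.71), Cdk1 (−0.74), Cdc20 (−0.63) and Ccnb1 (−0.54), with adjusted p from 0.000714 to 0.045. The calls of Anapc13 and Pcna were kept in 9 of 9 fits with 1 library left out. That of Cdk1 was lost without Lmx1b+/- 3 and without Lmx1b-/- 3 (adjusted p up to 0.0766). That of Ccnb1 was lost without Lmx1b+/- 2 or 3 or any 1 Lmx1b-/- library (up to 0.108), and that of Cdc20 was kept only without WT 3 or Lmx1b+/- 1 (up to 0.164). Scaled by library total only, which raises the median of all genes from 0.02 to 0.22, 4 of the 101 were called there.

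Genes tied to securin outside mitosis gave no call in the AMPK libraries. Pttg1ip, which encodes a binding partner that carries securin to the nucleus, was at 36.6 to 61.4 CPM in WT and 53 to 60.4 CPM in AMPKα2-/- (0.13, adjusted p = 0.743). Trp53 (p53), to which securin can bind, was at −0.32 (adjusted p = 0.482). Its target Cdkn1a, the cell cycle inhibitor p21, was at −0.59 (adjusted p = 0.185), with 16.8, 23.3 and 22.1 CPM in WT and 15.5, 12.6 and 3.02 CPM in AMPKα2-/-. Vegfa and Myc, growth genes linked to securin, were at −0.38 and −0.62 (adjusted p = 0.250 and 0.459). Of the 10 genes of this list, edgeR called 0, and 1 had an unadjusted p under 0.05. The shares over all genes were 8.94% and 24.6%, so a count of 0 among 10 says little about them. In Lmx1b+/- against WT, Cdkn1a fell by 0.53 (adjusted p = 0.000505).

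Markers of cell types that could bring securin into the tissue were also counted between the AMPK genotypes. Of 12 neural progenitor markers, 1 was called, Notch1, the receptor that keeps progenitors from becoming neurons, which fell by 1.30 (adjusted p = 0.00829), but not without WT 3 (−0.97, adjusted p = 0.0891). Of 7 tested markers of cerebellar granule progenitors, 1 was called, the transcription factor Barhl1, which fell by 3.06 (adjusted p = 0.00493), but not without WT 3 (−2.59, adjusted p = 0.0847). Of 7 oligodendrocyte progenitor markers, 0 were called by edgeR, 2 had an unadjusted p under 0.05, and the median was −0.34. Over all genes 8.94% were called and 24.6% had an unadjusted p under 0.05. Summed neural progenitor markers ranged from 303 to 417 CPM in WT and from 384 to 431 CPM in AMPKα2-/-, and the genotypes overlapped.

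Markers of other tissues were also compared between the AMPK labels. Of 6 tested choroid plexus markers, 2 were called, both higher in AMPKα2-/-, the thyroxine carrier Ttr (3.80, adjusted p = 1.87e-05) and the potassium channel Kcnj13 (3.98, adjusted p = 0.00627). The summed choroid plexus markers overlapped, at 263 to 492 CPM in WT and 439 to 568 CPM in AMPKα2-/-. Of 5 tested erythroid markers 2 were called higher. Over all genes 8.94% were called, 3.77% as higher and 5.17% as lower. Of 6 tested skeletal muscle markers 6 were called lower, but WT 3 alone carried this, with summed muscle markers of 1043 CPM against 12.3 and 13.3 CPM in WT 1 and 2 and 6.04 to 11.5 CPM in AMPKα2-/-. Mitochondrially encoded genes held 10.4% to 13.9% of counts in WT and 20.05% to 21.7% in AMPKα2-/-. In bulk tissue, more cells of a type and more RNA per cell cannot be told apart, and the part of these differences in that of Pttg1 was not tested.

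The tissue label was checked on 12 brainstem markers, all of which passed the filter in both experiments. Their summed levels were 503 to 625 CPM in the AMPK libraries and 395 to 623 CPM in the Lmx1b libraries. Tph2, which makes serotonin, was called higher in AMPKα2-/- (5.26, adjusted p = 0.000835). Tph2 was at 134, 3.63 and 69.5 CPM in AMPKα2-/- 1 to 3. Its level in AMPKα2-/- 2 was close to WT, at 0.700 to 6.66 CPM, whereas Pttg1 was at 24.0 CPM in that library.

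The second question was whether Pttg1 points to a difference in strain background. A knockout allele made in one strain and crossed into another keeps donor chromosome around the targeted gene, and donor segments elsewhere can differ between mice. The labels give C57BL/6 for all mice, and the strain in which the AMPKα2 allele was made is not given in the sources used here. Counts per gene carry no alleles, so strain can be looked at only through the levels of genes. Pttg1 lies on chromosome 11 and Prkaa2 on chromosome 4, so Pttg1 is not in the segment linked to the targeted gene. Gene order was read from the RefSeq table of GRCm38.p6, while the counts were made on GRCm39 by the submitters' processing notes.

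The genes beside Pttg1 did not share the size of its difference. Of 28 genes within 2 Mb, 14 were tested and 2 were called, both higher (14.3%, where all genes gave 8.94%). Slu7, a splicing factor whose gene is nearest to Pttg1 among those tested, had a log2 fold change of 0.36 (adjusted p = 0.219). On the same side, Ccnjl, a cyclin-like gene, and Pwwp2a, a chromatin reader, were at −0.70 and −0.33 (adjusted p = 0.474 and 0.586). On the other side, Atp10b, a lipid flippase, was at −0.26, and Gabrb2, a subunit of the GABA-A receptor, was at −0.69 (adjusted p = 0.713 and 0.118). The called genes were the co-chaperone Ttc1 (0.66, adjusted p = 0.0401) and the phosphatase Ublcp1 (0.65, adjusted p = 0.0398). With 1 library left out, the call of Ttc1 was kept in 2 of 6 fits, those without WT 1 and without AMPKα2-/- 2, and that of Ublcp1 in 1 of 6, that without WT 1 (adjusted p up to 0.145 and 0.259).

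**Figure D4:**
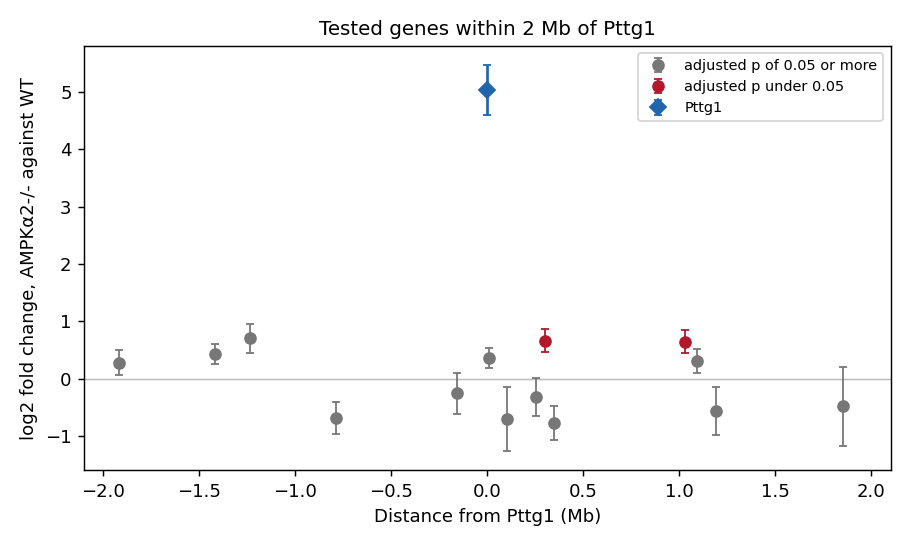
Log2 fold change between AMPKα2-/- and WT (vertical, with SE) of the 14 tested genes within 2 Mb of Pttg1, by distance from Pttg1 in Mb (horizontal). Pttg1 (blue diamond) stands at 5.03, and its neighbours lie from −0.77 to 0.71 on both sides.

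Around Prkaa2, 4 of 99 tested genes within 10 Mb were called (4.04%), and 16 had an unadjusted p under 0.05. Within 5 Mb edgeR called 0 of 66, and 9 had an unadjusted p under 0.05. Within 2 Mb of Pttg1, 6 of the 14 tested genes had one. Over all genes 8.94% were called and 24.6% had an unadjusted p under 0.05. On chromosome 11 as a whole 11.9% of 1239 tested genes were called, and on chromosome 4 9.63% of 1007. Without the shallow libraries, 0 of the tested genes near Pttg1 and 0 near Prkaa2 were called, in a fit that called 6 of 18088 genes. The 4 called genes near Prkaa2 were all higher in AMPKα2-/-.

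A list of 26 genes known to differ in level between mouse strains or C57BL/6 substrains had 24 members matched by symbol, of which 18 were tested and 2 were called (11.1%, where all genes gave 8.94%). C4b, a complement gene, fell by 0.91 (adjusted p = 0.0237), with 242, 93.2 and 130 CPM in WT and 111, 63.7 and 90.7 CPM in AMPKα2-/-, and the genotypes overlapped. Cox7a2l, which helps assemble respiratory supercomplexes, rose by 0.63 (adjusted p = 0.0432), with no overlap. Neither call was kept in DESeq2 (adjusted p = 0.267 and 0.0833). With 1 library left out, the call of C4b was lost without WT 1 and without AMPKα2-/- 3 (adjusted p up to 0.119), and that of Cox7a2l was kept only without WT 1 or AMPKα2-/- 1 (up to 0.234). Nnt, a mitochondrial transhydrogenase that carries a deletion in C57BL/6J, was named after its values were seen. It had at most 9 counts in any AMPK library and lay at 0.346 to 0.802 CPM in the Lmx1b libraries, so it was low in all genotypes. Whether the Pttg1 difference follows the AMPKα2 genotype or a segment of another strain was not tested, and with 3 mice per label it cannot be told apart in these counts.

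The genes whose pattern was most like that of Pttg1 were sought among 17139 genes tested in both experiments, by Pearson's r of log2 CPM over the 15 libraries. The measure uses the AMPK difference that chose Pttg1, so it is a description. Among the 8 highest were Fam183b (0.95), C330018D20Rik (0.94), Wif1 (0.93), Cabcoco1 (0.92), Gm5380 (0.91), Taf12 (0.90) and Efl1 (0.90). Without the shallow libraries, the r of these genes was lower, from 0.76 (Efl1) to 0.89 (Fam183b). Wif1, a secreted inhibitor of Wnt signalling, was at 0.724, 0 and 0.292 CPM in AMPK WT, at 4.23, 5.31 and 12.1 CPM in AMPKα2-/- and at 3.34 to 9.59 CPM in the Lmx1b libraries. It shares with Pttg1 a low level in AMPK WT 1 and 3, and it too had 0 counts in the shallow WT 2, where the limit is 9.98 CPM.

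None of these 8 genes is on a cell cycle list. Over the same libraries the highest r of a G2/M gene was 0.52, and the median over 21 G2/M genes was 0.27, against 0.11 over all genes. For 21 G1/S genes the highest was 0.69 and the median 0.23. Over the 9 Lmx1b libraries, which did not serve to choose Pttg1, r was higher for both lists, with a median of 0.36 and a highest value of 0.86 for G2/M and of 0.48 and 0.93 for G1/S, against a median of −0.03 over all genes. Among all genes the highest over these libraries were Lrrc57 (0.99), Eif3j1 (0.99), Gm47469 (0.98), Gm6254 (0.98) and Ugp2 (0.98). Over all 15 libraries these genes had an r of −0.49 (Lrrc57) to 0.30 (Gm47469). Lrrc57 had a log2 fold change of 0.01 in the AMPK experiment. The highest genes among embryos were thus not the highest in the whole series. Over the 9 Lmx1b libraries, the 8 genes above had an r of −0.12 (Wif1) to 0.88 (C330018D20Rik). Taf12, Fam183b and Efl1 had 0.71 each.

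Other genes with a high fold change in AMPKα2-/- either followed Pttg1 from library to library or did not, and they are described here without a test. The serotonin transporter Slc6a4 and the serotonin receptor Htr5b, like Tph2, were high in AMPKα2-/- 1 and 3 and low in AMPKα2-/- 2. Slc6a4 was at 70.2, 1.49 and 39.3 CPM and Htr5b at 50.1, 0.907 and 30.2 CPM. Gcg, which encodes glucagon and its related peptides, was at 0, 0 and 0.0584 CPM in WT and 5.42, 5.89 and 12.1 CPM in AMPKα2-/-. Ttr was at 1.84, 6.66 and 5.19 CPM in WT and 52.1, 26.6 and 112 CPM in AMPKα2-/-. Gcg, Ttr, Kcnj13 and Wif1 thus had higher measured CPM in all AMPKα2-/- libraries than in any WT library, as Pttg1 did. Of all tested genes 13.9% did so. Gcg, Kcnj13 and Wif1 had 0 counts in the shallow WT 2. The limit there, 9.98 CPM, lies above some of their AMPKα2-/- values.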

How the data were processed

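PolyA RNA of 15 brainstem libraries had been prepared with a directional kit, sequenced on an Illumina HiSeq 2000 and aligned with HISAT2. The submitters' processing notes name the GRCm39 build. The counting program, the annotation and the use of molecular indexes are not given in the sources used here. For each experiment the authors deposited whole-number counts per gene, without normalization, and RPKM per gene, made from them (implied length of Pttg1, 2000 bases). Of 57180 Ensembl identifiers, 51884 were matched to a symbol in a gene name table. The tables held 0 columns of other samples. The AMPK WT 3 column carries a suffix, and the Lmx1b WT 3 column the number of its library name.

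Differences were tested in edgeR 4.0.16 under R 4.3.3 (filterByExpr, TMM, quasi-likelihood F-test, Benjamini-Hochberg over all tested genes, threshold 0.05) on genotype alone, in 1 fit of the 6 AMPK libraries and 1 of the 9 Lmx1b libraries. This left 17397 and 21729 genes. Correlations used log2 CPM with a prior count of 2. Scripts were tested on simulated data. Alternatives were other scalings and filters, DESeq2 1.42.0, limma 3.58.1 on log2(RPKM + 1) or log2(RPKM + 0.1), a replicate block, other windows and each library left out. The gene, the lists, written from general knowledge, and the rule for named genes (a fixed set of securin partners and cell cycle genes, the 3 members of each list with the smallest p, the 3 nearest tested neighbours on each side and the genes most like Pttg1) were chosen with earlier results of these data known. Genes outside the rule are Ttc1, Ublcp1, Anln, Slc6a4, Htr5b, Gcg and Nnt. A few genes that the rule names are not reported here.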

Additional observations from a re-analysis of the deposited data

How the results depend on the processing

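The log2 fold change of Pttg1 in the AMPK libraries was 4.84 to 5.47 with 1 library left out and 3.26 in limma on log2(RPKM + 1), where the pseudocount exceeds the WT values. It could not be fitted with at least 10 counts required in every library, since WT 2 has 0. In Lmx1b+/- against WT it was 0.37 to 0.69 with 1 library left out, 0.32 (adjusted p = 0.272) with library totals only, and 0.24 and 0.30 (adjusted p = 0.285 and 0.272) in limma with a pseudocount of 1 and 0.1. In the other Lmx1b comparisons it passed the threshold under none of the alternatives run.

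Cell cycle calls in the AMPK libraries were 2 with library totals only, 0 with at least 10 counts in every library, 0 in both limma fits (which called 0 of all genes), 0 without both shallow libraries (6 of all genes) and 0 to 3 with 1 library left out. In Lmx1b+/- against WT they were 10 with library totals only, 5 and 7 in limma and 18 to 36 with 1 library left out. In Lmx1b-/- against Lmx1b+/- they were 4, 2 and 2, and 12 to 42. Calls within 2 Mb of Pttg1 were 1 with library totals only, 5 with every gene that has a count, 1 within 1 Mb, 0 with at least 10 counts, in DESeq2, in limma and without both shallow libraries, and 0 to 6 with 1 library left out. Calls near Prkaa2 were 0 in DESeq2, in limma, without both shallow libraries and within 5 Mb, and 1 to 14 with 1 library left out. Strain list calls were 1 with library totals only, 0 in DESeq2, in limma and without both shallow libraries, and 0 to 3 with 1 library left out. The causes were not tested.

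In the AMPK table, deviations of same-numbered libraries had correlations of −0.121 to 0.0476, against −0.0962 to 0.123 for other numbers. In the Lmx1b table, same-numbered WT and Lmx1b-/- libraries had positive correlations (0.0758, 0.148 and 0.0974). Differently numbered ones of these genotypes ran from −0.0952 to −0.0100. Same-numbered pairs with Lmx1b+/- ran from −0.177 to −0.0526. Whether the numbers mark pairs in the Lmx1b experiment was not tested. With the replicate number as a block, the AMPK counts of calls were 2 for the cell cycle, 1 near Prkaa2 and 1 on the strain list. Mcm2 turned to 0.12 there. Pttg1 in Lmx1b+/- against WT was 0.56 (adjusted p = 0.0263).

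Reversed values in the AMPK comparison, none of them called, were Rad21 (−0.064), Cdk1 (−0.0044), Mki67 (−0.12) and Pttg1ip (−0.034) with library totals only, Rad21 (−0.091 and −0.094), Mki67 (−0.0050, pseudocount of 1) and Plk1 (0.23 and 0.70) in limma, and Smc1a (0.13) without both shallow libraries. With 1 library left out, the ranges that cross 0 were −0.29 to 1.56 for Cdc20, −0.15 to 1.496 for Bub1b, −0.37 to 1.02 for Cdk1, −0.84 to 2.31 for Mki67, −0.88 to 0.17 for Mcm2, −0.18 to 0.075 for Smc1a, −0.012 to 0.17 for Rad21, −0.35 to 0.033 for Prkaa2 and −0.75 to 0.075 for Atp10b. In the shallow AMPK libraries, levels under 9.07 CPM are not resolved.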
